A study of Mus musculus with 15 samples.

Results

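The genes described here encode 9 scaffold proteins of the skeletal muscle sarcomere. They are titin (Ttn), the slow-type and fast-type myosin-binding proteins C (Mybpc1 and Mybpc2), myomesin, M-protein and myomesin 3 (Myom1, Myom2 and Myom3), nebulin (Neb), alpha-actinin-2 (Actn2) and calsarcin-2 (Myoz1). They were taken by symbol from a table of 22798 gene symbols, with 1 row for each of the 9, and all 9 passed the filter on low counts that left 17975 genes for testing. RNA was sequenced from skeletal muscle of C57BL/6 mice aged 12 months, kept on a normal diet and fasted overnight before sampling. The series holds 3 libraries labelled CD47-KO, from mice described as lacking the cell surface receptor CD47, 6 libraries from mice that had exercised, and 6 from sedentary wild-type mice. The muscle sampled, the kind of exercise, the genotype of the exercised mice and the way the Cd47 allele was made are not given in the sources used here.

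A sarcomere is the contractile unit of striated muscle, bounded by Z-discs that anchor the actin thin filaments, with the myosin thick filaments held in its middle by the M-band. Titin runs from the Z-disc to the M-band as an elastic filament that centres the thick filament, nebulin lies along the thin filament and stabilises it, and myosin-binding protein C decorates the thick filament and modulates the crossbridges. Myomesins link neighbouring thick filaments at the M-band, alpha-actinin crosslinks thin filaments at the Z-disc, and calsarcins bind alpha-actinin there and tether the phosphatase calcineurin. Several members have fibre-type partners: Mybpc1 is the slow-type and Mybpc2 the fast-type form, and M-protein is known from fast fibres.

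Total counts per library were 76005277 to 84364189 for CD47-KO, 54851831 to 77628546 for exercise and 50928458 to 70774311 for sedentary mice. The 9 genes together took 3.32 to 3.73% of the counts in CD47-KO, 2.14 to 3.46% in exercise and 1.85 to 3.83% in sedentary libraries. Mitochondrially encoded genes took 18.1 to 19.2% in CD47-KO, 4.49 to 12.5% in exercise and 4.77 to 18.2% in sedentary libraries. Cd47 itself was at 11.5 to 12.1 CPM (counts scaled to library size) in the libraries labelled CD47-KO, 10.8 to 15.7 in exercise and 11.4 to 16.4 in sedentary libraries, and it was not lower by the test (adjusted p = 0.295 against sedentary, edgeR's quasi-likelihood test), so that CD47-KO is used below as a label. The 6 muscle fibre identity genes summed to 48509 to 61384 CPM in CD47-KO, 94670.2 to 109052 in exercise and 72216 to 111242 CPM in sedentary libraries. The cardiac genes Nppa and Nppb were at 0 in some libraries of every group. The first principal component, with 23.7% of the variance, set title numbers 4 to 6 of exercise and sedentary mice apart from their numbers 1 to 3, and the second, with 21.3%, set the CD47-KO libraries apart. No label explains these number sets or says whether the CD47-KO libraries, titled 1 to 3, belong to one. On the first component CD47-KO lay at -63.7 to -54.5, beside numbers 1 to 3 of the other groups (-49.7 to -30.9). Numbers 4 to 6 lay at 48.4 to 116. The second component had the other order, with CD47-KO at 88.6 to 92.8, nearer to numbers 4 to 6 (0.979 to 21.6). Numbers 1 to 3 lay at -76.1 to -40.7 there, so the components do not place CD47-KO with either set. Whether anything technical besides genotype sets the CD47-KO libraries apart cannot be told apart from the group itself. Among deposited counts of 1 to 15, the share that were 4, 8 or 12 was 32.1 to 33.6% in CD47-KO, 43.6 to 50.2% in exercise and 41.7 to 48.5% in sedentary libraries, so that CD47-KO did not overlap the others, and the part of this in the comparisons was not tested. Since no label says that each library is its own animal, p-values here cover the variation among libraries, which may be technical.

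On the GRCm38 genome, Ttn lies on the minus strand at chr2:76703980-76982547, and its longest annotated transcript has 106824 bases. Neb lies on the same chromosome and strand at chr2:52136647-52378474, with a longest transcript of 22489 bases. The other members have transcripts of 1289 bases (Myoz1) to 5648 bases (Myom1). Mybpc1 is at chr10:88518279-88605152, Mybpc2 at chr7:44501699-44524656, Myom1 at chr17:71002633-71126856, Myom2 at chr8:15057653-15133541, Myom3 at chr4:135759715-135815564, Actn2 at chr13:12269426-12340760 and Myoz1 at chr14:20649107-20656540. The library kit named in the labels is taken here not to mark strand. If so, reads of a member and of a gene on the opposite strand cannot be told apart where they overlap. Of such partners, Myl12a, a myosin regulatory light chain opposite Myom1, had 3878 to 32363 counts per library, against 61731 to 232970 for Myom1. The other partners had at most 348 counts in a library, where no member they overlap had fewer than 15894.

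RefSeq promoter sequences (build GRCm38.p6, the 250 bases before the start used for that promoter) were at hand for 6 of the 9 members. This start can differ from the gene bounds given above. The Myom1 promoter, at chr17:71019307-71019556, lies inside the bounds of its gene, and the Actn2 promoter overlaps the bounds of its gene in part. Those of Mybpc1, Myom3 and Actn2 are shown because these members were lowest in the library with the least of the slow fibre genes, as described below. Capitals mark E-boxes and, in Myom3, 1 match to the MEF2 consensus, CTATATTTAA, with no overlap between the motifs. An E-box is any CANNTG, a broad pattern that includes sites of MyoD-family factors but is not particular to them.
Mybpc1: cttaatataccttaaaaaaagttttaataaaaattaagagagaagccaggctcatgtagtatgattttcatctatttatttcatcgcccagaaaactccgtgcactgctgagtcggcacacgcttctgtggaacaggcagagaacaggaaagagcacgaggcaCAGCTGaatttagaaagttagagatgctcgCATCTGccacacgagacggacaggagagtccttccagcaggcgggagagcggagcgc
Myom3: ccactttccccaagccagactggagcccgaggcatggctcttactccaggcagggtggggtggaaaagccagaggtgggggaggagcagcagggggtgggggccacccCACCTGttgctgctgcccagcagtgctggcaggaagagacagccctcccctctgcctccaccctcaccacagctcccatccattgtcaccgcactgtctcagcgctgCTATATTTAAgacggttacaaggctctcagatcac
Actn2: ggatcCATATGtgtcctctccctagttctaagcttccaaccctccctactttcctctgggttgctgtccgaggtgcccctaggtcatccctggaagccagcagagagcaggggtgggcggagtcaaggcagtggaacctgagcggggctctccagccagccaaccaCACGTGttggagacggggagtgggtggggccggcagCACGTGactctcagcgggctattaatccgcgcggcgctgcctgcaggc

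They lie on the minus strand at chr10:88605153-88605402 (Mybpc1), on the plus strand at chr4:135759465-135759714 (Myom3) and on the minus strand at chr13:12340733-12340982 (Actn2), each written 5′ to 3′ towards its gene. Mybpc1 holds 2 E-boxes, 87 and 57 bases before the start counted to their first base, Myom3 holds 1 and Actn2 holds 3. The MEF2 match of Myom3 begins 35 bases before the start, and Ttn has the other, 166 bases before it. Both motifs were searched on both strands, and all 6 promoters hold an E-box, as do 66.2% of 32851 RefSeq mouse promoters of this length. A MEF2 match was found in 2 of the 6 and in 2.92% of all promoters, and a match to the CArG box bound by serum response factor in Myom1 alone, against 1.47% of all. These are letter matches only.

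Between the libraries labelled CD47-KO and the sedentary libraries, Neb was 2.24-fold higher in CD47-KO and Myoz1 stood at 0.506-fold of its sedentary level, and no other member passed the test. The thin filament gene Neb was thus called higher and the Z-disc gene Myoz1 lower. Titin, both myosin-binding proteins C, the 3 M-band genes and Actn2 had adjusted p-values from 0.259 to 0.832. Both calls depended on the processing, as described below. Myoz1 lost its call with a correction for transcript GC content, and Neb with a correction for GC content and transcript length. With 1 member higher and 1 lower of 9, the share called stands beside 20.7% of all 17975 genes, of which 11.9% were higher and 8.75% lower. On the log2 scale, used for fold changes from here on unless a value is written as -fold, the median over the 9 members was 0.12, against -0.11 over all genes tested. The test was edgeR's quasi-likelihood test on all 15 libraries with Benjamini-Hochberg adjustment over all genes.

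Set against the exercise libraries, the same 2 members passed in the libraries labelled CD47-KO, Neb at 2.97-fold and Myoz1 at 0.474-fold. This comparison uses the same 3 CD47-KO libraries as the one against sedentary, so that the pair of results is not independent. Of all genes, 20.6% were called, 12.2% higher and 8.34% lower. The members' median log2 fold change was -0.03, against -0.08 over all genes.

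Between exercise and sedentary libraries, none of the 9 members passed the test, with adjusted p-values of 1.00 throughout. Here edgeR called 0 of 17975 genes, with 665 at an unadjusted p under 0.05, DESeq2 called 9 and limma-voom 0, so the background share is 0%. The member with the largest rise was Myom2 (0.42, SE 0.25), and the lowest values were those of Myom3 (-0.99, SE 0.66), Ttn (-0.55, SE 0.36) and Neb (-0.41, SE 0.26). The members' median was -0.09, against -0.03 over all genes.

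**Figure D1:**
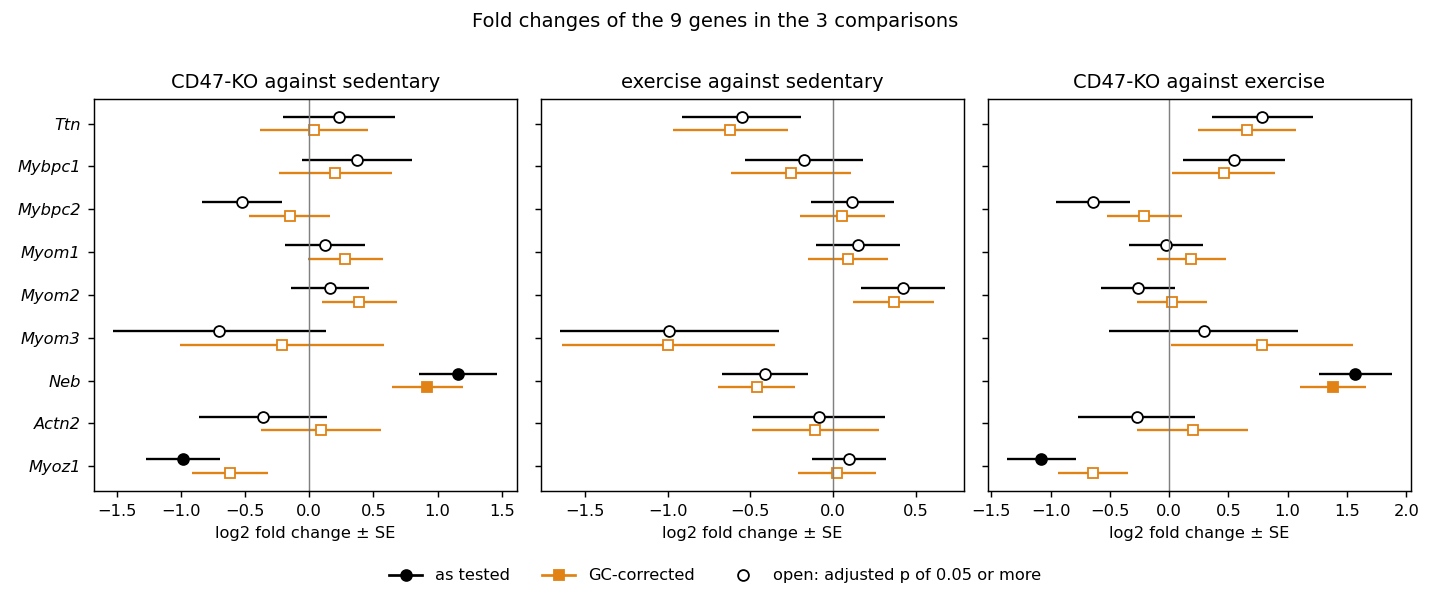
Log2 fold change with its standard error for each of the 9 genes in the 3 comparisons, as tested (black circles) and after correction for transcript GC content (orange squares); filled symbols have an adjusted p under 0.05. Neb is filled in both comparisons of CD47-KO under both settings, Myoz1 only as tested, and no gene is filled for exercise against sedentary.

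The nebulin gene Neb reached 5862, 5204 and 7839 CPM in the CD47-KO libraries. It had 1528 to 2756 CPM in the exercise libraries (median 2227) and 1311 to 3884 CPM in the sedentary libraries (median 3102). Every CD47-KO library lay above every other library, a separation also found in the higher direction for 15.7% of all genes against sedentary and 17.5% against exercise. The means were 6302 ± 1371 (SD, n = 3) in CD47-KO, 2119 ± 462 (SD, n = 6) in exercise and 2819 ± 1040.3 CPM (SD, n = 6) in sedentary libraries. Against sedentary, the log2 fold change was 1.16 (SE 0.31, adjusted p = 0.0133 by edgeR), and against exercise it was 1.57 (SE 0.30, adjusted p = 0.00171). Set against each sedentary number set in turn, CD47-KO was higher by 1.25 against numbers 1 to 3 (adjusted p = 0.0305 by edgeR) and by 1.20 against numbers 4 to 6 (adjusted p = 0.0152). Both values use the same 3 CD47-KO libraries and are not independent. Without CD47-KO library 3, the highest, the value against sedentary was 1.02 and missed the threshold (adjusted p = 0.0744). Exercise and sedentary libraries overlapped for Neb, and the exercise value was -0.41 (SE 0.26).

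Myoz1, which in mice is a calsarcin of fast fibres, had 1343, 1088 and 1338 CPM in the CD47-KO libraries. It had 2182 to 3219.6 CPM in exercise (median 2626) and 1121 to 3633 CPM in sedentary libraries (median 2590.1). CD47-KO and exercise libraries did not overlap, as for 14.1% of all genes in the lower direction, whereas sedentary library 1, at 1121 CPM, lay among the CD47-KO values. Averages were 1256 ± 146 (SD, n = 3) in CD47-KO, 2652 ± 336 (SD, n = 6) in exercise and 2481 ± 855 CPM (SD, n = 6) in sedentary libraries. The log2 fold change was -0.98 against sedentary (SE 0.29, adjusted p = 0.0245 by edgeR) and -1.08 against exercise (SE 0.29, adjusted p = 0.0147). Leaving out any 1 of the CD47-KO libraries 1, 2 or 3 ended the call in both comparisons, with adjusted p-values from 0.0850 to 0.0934 against sedentary and from 0.0601 to 0.0690 against exercise. Against sedentary, the value was -0.48 with numbers 1 to 3 alone (adjusted p = 0.181) and -1.26 with numbers 4 to 6 alone (adjusted p = 0.00212). Mitochondrially encoded genes took a larger share in the CD47-KO libraries than in most others, and with these genes left out of the totals and the fit, Myoz1 was at -0.91 (adjusted p = 0.0331) and Neb at 1.24 (adjusted p = 0.00786) against sedentary.

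Actn2, the alpha-actinin found in all fibre types, had 922, 1678 and 748 CPM in CD47-KO libraries. Its levels ran from 503 to 1897 CPM in exercise (median 1434) and from 587 to 3424 CPM in sedentary libraries (median 1169). The 3 groups overlapped, and sedentary library 1 stood above all others at 3424 CPM. That library also had the highest sums of tendon (729 CPM), cardiac (294 CPM) and endothelial genes (396 CPM), and their part in this value was not tested. The log2 fold change was -0.36 (SE 0.50) for CD47-KO against sedentary, and it turned to 0.09 after GC correction and to 0.06 without sedentary library 1. For CD47-KO against exercise it was -0.28 (SE 0.49), and for exercise against sedentary -0.09 (SE 0.40).

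**Figure D2:**
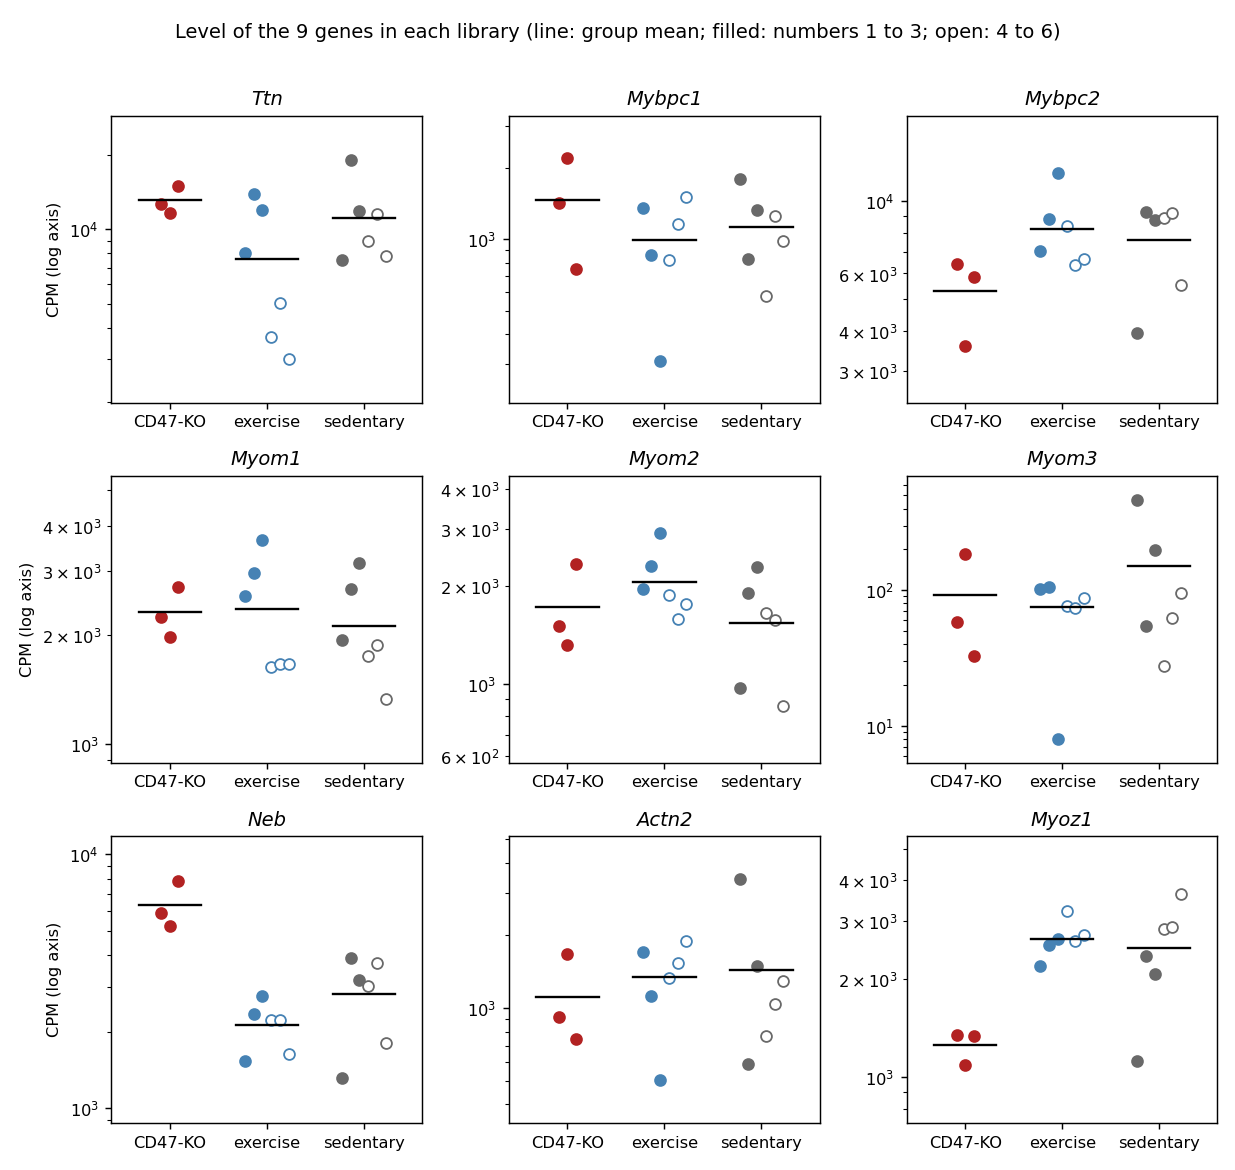
CPM of each of the 9 genes in every library, on log axes that differ between panels, with a line at the group mean; filled points are title numbers 1 to 3 and open points 4 to 6. The 3 CD47-KO points of Neb lie above all others, those of Myoz1 below all exercise points, and the open exercise points of Ttn, at 2984 to 5037 CPM, lie below all other Ttn points.

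Ttn had 12672, 11691 and 14931 CPM in the CD47-KO libraries. The exercise libraries ran from 2984 to 13883 CPM (median 6544) and the sedentary libraries from 7530.4 to 19157 CPM (median 10217). The CD47-KO libraries were close to each other, with a coefficient of variation of 12.7%, against 59.5% in exercise and 39.0% in sedentary libraries. All groups overlapped, and the log2 fold change was 0.23 for CD47-KO against sedentary (SE 0.44) and 0.79 for CD47-KO against exercise (SE 0.43, adjusted p = 0.217 by edgeR).

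The spread of Ttn within the exercise group followed the title numbers. Exercise libraries 4 to 6 had 3658, 5037 and 2984 CPM and exercise libraries 1 to 3 had 8051, 13883 and 11938 CPM, with no overlap, as for 19.6% of all genes in this direction. Sedentary numbers 4 to 6 had 8938, 11495 and 7781 CPM, within the range of sedentary numbers 1 to 3. Among numbers 4 to 6, all 3 exercise libraries lay below all 3 sedentary libraries, with a log2 fold change of -1.27 (SE 0.26, unadjusted p = 0.000651, adjusted p = 0.396 by edgeR). The same separation was found for 6.03% of all genes, and in this subset 0 of 16972 genes were called, with 1349 at an unadjusted p under 0.05. Among numbers 1 to 3 the value was -0.21 (SE 0.33) and the groups overlapped. Against exercise numbers 4 to 6 alone, an alternative added after the data were seen, CD47-KO was higher by 1.80 (SE 0.26, adjusted p = 0.00114 by edgeR). In that fit 2589 of 16972 genes were called higher. Against numbers 1 to 3 alone, likewise added afterwards, CD47-KO was higher by 0.31 (SE 0.33, adjusted p = 0.528).

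Mybpc1 had 1425, 2194 and 755 CPM in the CD47-KO libraries, 309.6 to 1499.6 CPM in exercise (median 1008) and 578 to 1795 CPM in sedentary libraries (median 1119). Mybpc2 had 6406, 3601 and 5841 CPM in CD47-KO, 6359.7 to 12204 CPM in exercise (median 7725) and 3937 to 9259.9 CPM in sedentary libraries (median 8841). The groups overlapped for both genes. For CD47-KO against sedentary the log2 fold change was 0.37 for Mybpc1 (SE 0.43) and -0.53 for Mybpc2 (SE 0.31, adjusted p = 0.259 by edgeR). Against exercise it was 0.55 for Mybpc1 (SE 0.43) and -0.64 for Mybpc2 (SE 0.31, adjusted p = 0.165). Without sedentary libraries 1 and 6, whose scaling factors of 1.24 and 0.795 lay farthest from 1, Mybpc2 was called lower in CD47-KO against sedentary, at -0.74 (adjusted p = 0.0485). This alternative, in which 1525 of 17643 genes were called lower, was also added after the data were seen.

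At the M-band, Myom1 had 2244, 1969 and 2706 CPM in the CD47-KO libraries, 1632 to 3648 CPM in exercise (median 2104) and 1329 to 3157 CPM in sedentary libraries (median 1900.3). Myom2 had 1513, 1323 and 2344 CPM in CD47-KO, 1586 to 2911 CPM in exercise (median 1924) and 859 to 2297 CPM in sedentary libraries (median 1612). Neither gene separated any groups. The log2 fold changes of CD47-KO against sedentary were 0.12 for Myom1 (SE 0.31) and 0.16 for Myom2 (SE 0.31). Those of CD47-KO against exercise were -0.03 for Myom1 (SE 0.31) and -0.26 for Myom2 (SE 0.31). Myom1 was also among the 19.6% of genes that separated the number sets within exercise in this direction, with 1632 to 1657 CPM in numbers 4 to 6 and 2552 to 3648 CPM in numbers 1 to 3. Sedentary libraries showed the same order, with 1329 to 1870.3 CPM in numbers 4 to 6 and 1930.3 to 3157 CPM in numbers 1 to 3, a separation found for 18.0% of all genes.

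Myom3 was the least abundant member, with a coefficient of variation of 88.9% in CD47-KO, 47.0% in exercise and 109% in sedentary libraries. It had 58.0, 186 and 32.8 CPM in CD47-KO, 8.01 to 105 CPM in exercise (median 81.9) and 27.4 to 462 CPM in sedentary libraries (median 78.5). The highest sedentary library was 16.9 times the lowest, and the highest exercise library 13.1 times the lowest. The log2 fold changes had standard errors of 0.66 to 0.83, with -0.70 for CD47-KO against sedentary and 0.29 for CD47-KO against exercise. No group stood apart.

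Levels were compared between genes per kilobase of the longest annotated transcript. In CD47-KO libraries the order of mean CPM per kilobase was Mybpc2 (1463), Myoz1 (975), Myom1 (408), Mybpc1 (372), Actn2 (370.3), Myom2 (340.2), Neb (280.2), Ttn (123) and Myom3 (16.5). In exercise libraries it was Mybpc2 (2284), Myoz1 (2057), Actn2 (448), Myom1 (416), Myom2 (408), Mybpc1 (255), Neb (94.2), Ttn (71.1) and Myom3 (13.5). In sedentary libraries it was Mybpc2 (2106), Myoz1 (1925), Actn2 (476), Myom1 (375), Myom2 (304), Mybpc1 (287), Neb (125), Ttn (104) and Myom3 (26.9). The ranges of neighbours in this order overlapped, except between Myoz1 and Myom1, Neb and Ttn, and Ttn and Myom3 in CD47-KO, and between Myoz1 and Actn2 and Ttn and Myom3 in exercise. The gap between Neb and Ttn was thus clear of the spread in the CD47-KO libraries alone, at 231 to 349 CPM per kilobase for Neb and 109 to 139.8 for Ttn. The order in the middle depends on the length used. Per kilobase of all annotated exons merged, the CD47-KO means were 322 for Mybpc1, 294 for Actn2, 237 for Neb, 221 for Myom1 and 195 for Myom2.

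Ratios of 2 members within a library do not depend on how libraries are scaled. The count ratio of Ttn to Neb was 2.16, 2.25 and 1.90 in CD47-KO libraries. It ran from 1.64 to 5.92 in exercise and from 2.97 to 5.74 in sedentary libraries. All CD47-KO ratios lay below all sedentary ratios, and the mean log2 ratio was 1.07 in CD47-KO and 2.0 in sedentary libraries, a difference of -0.94. An exact two-sided permutation test gave p = 0.0119, the smallest that 84 arrangements allow, and an adjusted p of 0.107 over the 9 ratio tests. In exercise, numbers 4 to 6 had ratios of 1.64 to 2.26 and numbers 1 to 3 of 4.33 to 5.92, so the CD47-KO ratios lay among those of exercise numbers 4 to 6. There the low ratio came with Neb at 1631 to 2229 CPM, against 5204 CPM or more in CD47-KO.

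The slow-to-fast ratio of Mybpc1 to Mybpc2 was 0.223, 0.609 and 0.129 in CD47-KO, 0.0254 to 0.225 in exercise and 0.0650 to 0.456 in sedentary libraries. Myom3 to Myom2 was 0.0384, 0.140 and 0.0140 in CD47-KO, 0.00275 to 0.0516 in exercise and 0.0166 to 0.476 in sedentary libraries. Groups overlapped in both, and the exact permutation p-values adjusted over the 9 tests ran from 0.554 to 0.750.

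**Figure D3:**
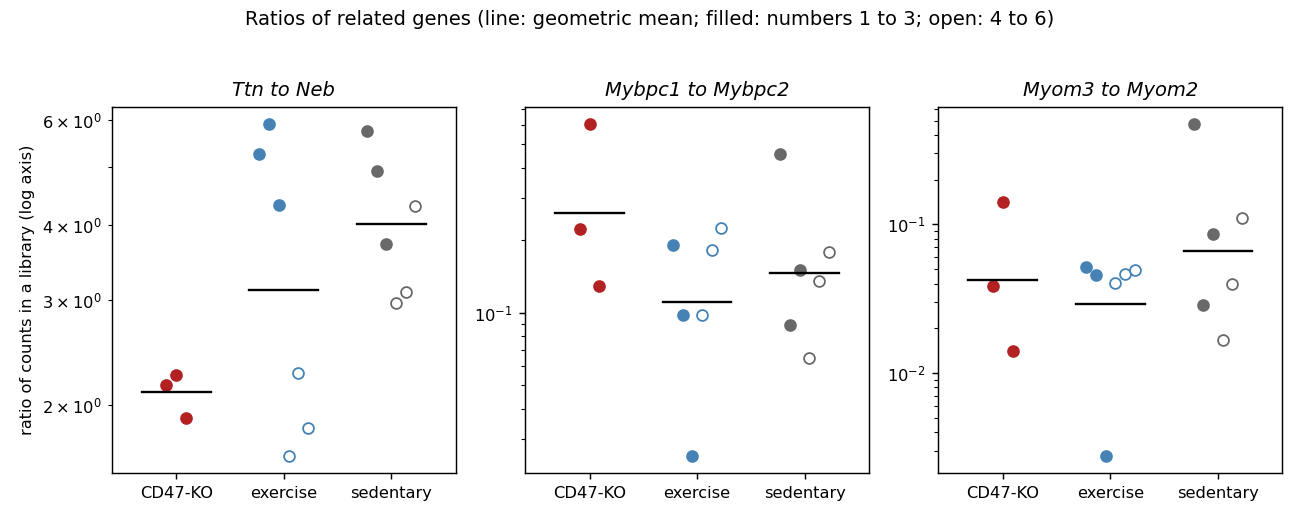
Count ratios of related members in each library on log axes, with a line at the geometric mean; filled points are title numbers 1 to 3 and open points 4 to 6. The CD47-KO ratios of Ttn to Neb, 1.90 to 2.25, lie below all sedentary ratios, and the exercise ratios fall into a filled group of 4.33 to 5.92 and an open group of 1.64 to 2.26.

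Myom3 was highest in the libraries richest in slow fibre genes, while Actn2 and Mybpc1 matched these genes in some libraries and not in others. The summed level of 12 slow fibre genes (slow myosin, troponins, light chains and others) was 1583, 7998 and 1059.8 CPM for CD47-KO, 105 to 4569.9 CPM in exercise and 1466 to 24667 CPM in sedentary libraries. The 3 libraries with the highest sums, sedentary 1 (24667 CPM), sedentary 3 (9147 CPM) and CD47-KO 2 (7998 CPM), also had the highest Myom3, at 462, 198 and 186 CPM. Exercise library 3, with the lowest sum, was lowest in Myom3 (8.01 CPM), Actn2 (503 CPM) and Mybpc1 (309.6 CPM). Exercise library 6, with a sum of 1572 CPM, had the second highest Actn2 of the 15 libraries (1897 CPM) and the third highest Mybpc1 (1499.6 CPM). Sedentary library 2, with a sum of 2278 CPM, had the second lowest Actn2 (587 CPM). In bulk muscle, fewer slow fibres and less of these RNAs per fibre cannot be told apart, and how far fibre content enters the comparisons of these members was not tested. None of the 12 slow fibre genes was called in any comparison, though most leaned 1 way. For CD47-KO against sedentary 0 of 12 were above 0, with a median of -0.99 against -0.11 over all genes. For exercise against sedentary 1 of 12 was above 0, with a median of -1.57 against -0.03. For CD47-KO against exercise 9 of 12 were above 0, with a median of 0.50 against -0.08. The 12 fast fibre genes summed to 102324 to 150099 CPM in CD47-KO, 151459 to 260696 CPM in exercise and 115734 to 231374 CPM in sedentary libraries. The lean below 0 in CD47-KO against sedentary was not particular to slow fibre genes. Of the 12 fast fibre genes 1 was above 0 there (median -0.73), and of the 6 muscle fibre identity genes 1 (median -0.76). Among the 12 fast fibre genes, Mylpf, Casq1 and Actn3 (25.0%) were called lower in CD47-KO against sedentary, where 8.75% of all genes were. After GC correction Mylpf and Casq1 were still called. Myh1, a fast myosin of the same list, had the opposite sign, at 1.00 (SE 0.34, adjusted p = 0.0506 by edgeR), and was called higher after GC correction (1.27, adjusted p = 0.0300).

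**Figure D4:**
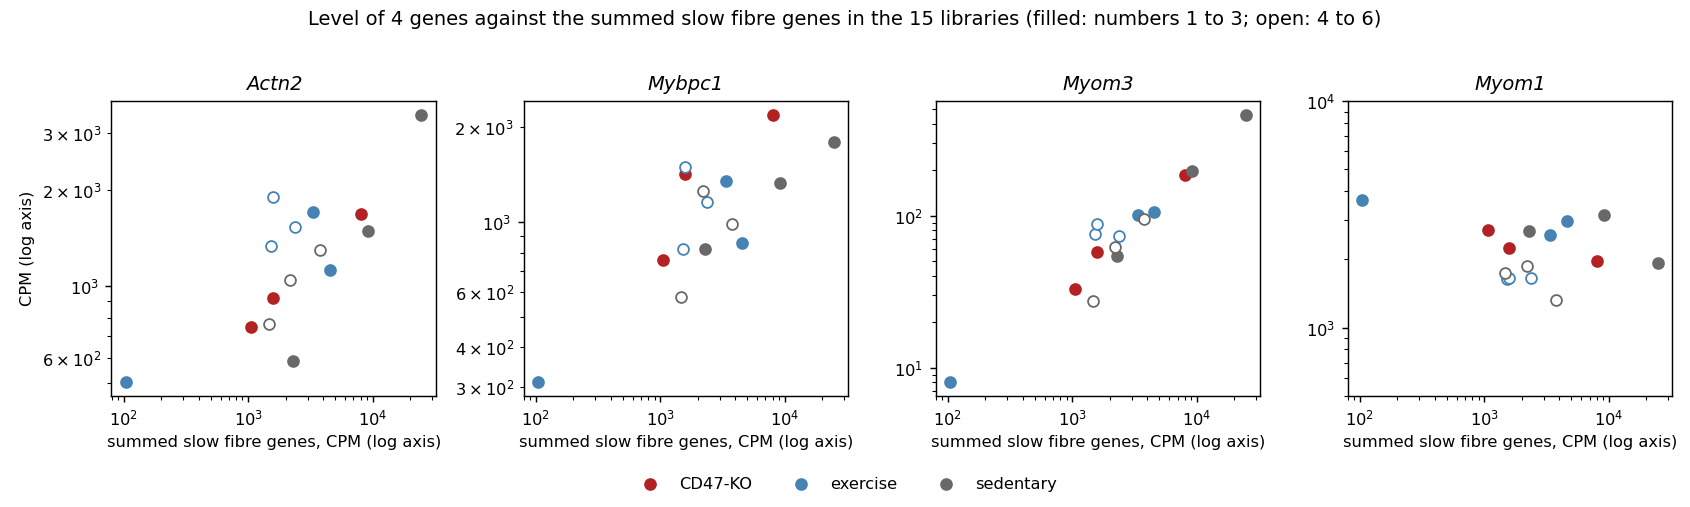
CPM of Actn2, Mybpc1, Myom3 and, for contrast, Myom1 against the summed CPM of 12 slow fibre genes in the 15 libraries, all axes logarithmic; filled points are title numbers 1 to 3 and open points 4 to 6. The lowest sum, 105 CPM in an exercise library, goes with the lowest Actn2, Mybpc1 and Myom3, and the highest, 24667 CPM in a sedentary library, with the highest Actn2 and Myom3, whereas the highest Myom1 (3648 CPM) is in the library with the lowest sum.

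Among the members, the profiles over the 15 libraries were most alike for Myom1 and Myom2, with a root mean square difference of mean-centred log2 CPM of 0.30, followed by Mybpc2 and Myom2 (0.35), Mybpc2 and Myoz1 (0.42) and Mybpc1 and Actn2 (0.45). The least alike were Myom3 and Neb (1.69). Of 2769 other genes with a mean log2 CPM of 5 or more, the nearest to Myom3 were Myoz2 (0.39), the calsarcin of slow fibres, and Tpm3 (0.44), the slow tropomyosin. Nearest to Myoz1 were Ckm (0.16), the muscle creatine kinase, and Tmod4 (0.17), which caps the pointed ends of thin filaments. Neb lay nearest to Vldlr (0.25) and Birc6 (0.26), Ttn to Kmt2c (0.39) and Vezf1 (0.40), and Actn2 to Lmcd1 (0.24) and Smtnl1 (0.25). Mybpc1 lay nearest to Atp1b1 (0.34) and Fgf1 (0.35), Mybpc2 to Pgm1 (0.15) and Reep1 (0.18), Myom1 to Nfx1 (0.14) and Plcl2 (0.16), and Myom2 to Map2k4 (0.17) and Nt5dc3 (0.20). These distances are descriptions, and the libraries share their number sets and groups.

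The fold changes of CD47-KO followed the GC content of transcripts. The Spearman correlation of log2 fold change and GC content was -0.651 against sedentary and -0.646 against exercise, and 0.0235 for exercise against sedentary. It was taken over 10396 genes with a mean log2 CPM of 1 or more, which are not independent replicates. Neb, at 47.0% GC, had 1.16 against sedentary where the median of 1074 genes within 1 percentage point of its GC content was 0.22. Ttn, at 47.4% GC, had 0.23 where its 1105 GC neighbours had a median of 0.14. Myoz1, at 54.6% GC, had -0.98 where 1122 genes had a median of -0.44.

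With a per-library correction for GC content, 9.72% of all genes were called for CD47-KO against sedentary (4.73% higher, 4.99% lower) and 9.58% against exercise (5.42% higher, 4.16% lower). Neb stayed called, at 0.92 against sedentary (adjusted p = 0.0474 by edgeR) and 1.38 against exercise (adjusted p = 0.00439). Myoz1 was no longer called, at -0.62 against sedentary (adjusted p = 0.222) and -0.64 against exercise (adjusted p = 0.206). A correction for GC content and transcript length took Neb to 0.57 (adjusted p = 0.348) and 0.90 (adjusted p = 0.109). At that length the curve is thin. Among genes with a mean log2 CPM of 1 or more, 11 others had transcripts of 20000 bases or more. Without correction, 9 of these were above 0 against sedentary, with a median of 0.27. Of 269 others with transcripts of 10000 bases or more, 78 were called higher and 4 lower against sedentary without correction, with a median of 0.32. Over all 17975 genes, 11.9% were higher and 8.75% lower in that fit.

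**Figure D5:**
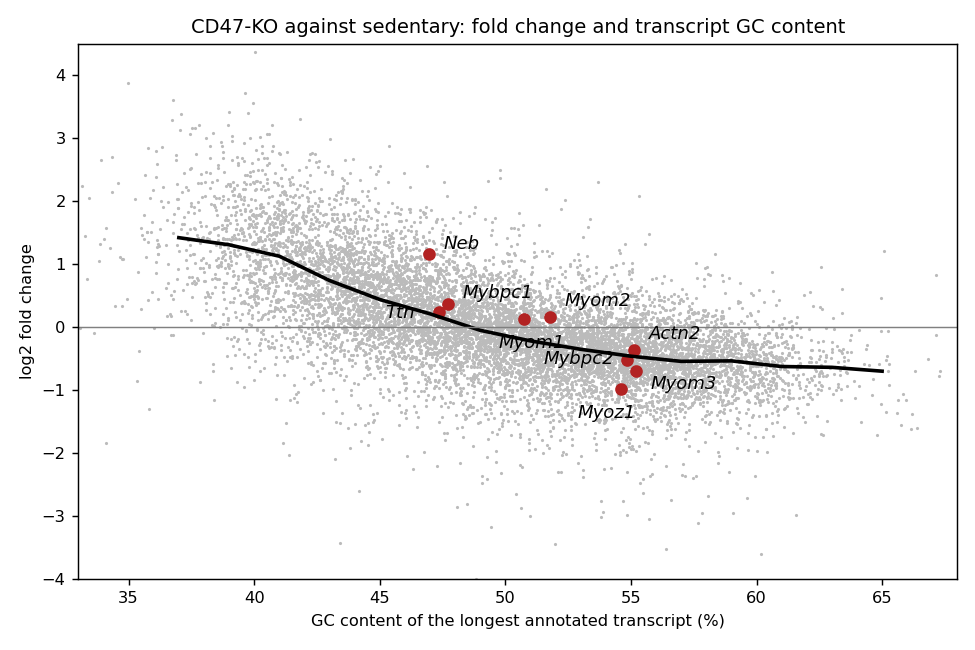
Log2 fold change of CD47-KO against sedentary plotted against the GC content of the longest annotated transcript for each gene with a mean log2 CPM of 1 or more (grey), with the running median (line) and the 9 members (red). Neb, at 47.0% GC, lies above the line and Myoz1, at 54.6% GC, below it, while Ttn, Mybpc2 and Actn2 lie close to it.

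Of 56 tested partners of these scaffolds, genes of the Z-disc, M-band, thick filament and I-band, 6 were higher (10.7%) and 8 lower (14.3%) in CD47-KO against sedentary. Over all genes 11.9% were higher and 8.75% lower, and the median was -0.22 over the partners and -0.11 over all genes. Of 25 Z-disc partners 3 were higher and 4 lower, of 14 M-band and thick filament partners 1 was higher and 2 lower, and of 17 I-band and thin filament length partners 2 were higher and 2 lower. Xirp2, a Xin-repeat protein that binds and stabilises actin filaments, averaged 2895 ± 385 CPM in CD47-KO and 542 ± 377 CPM in sedentary libraries (SD, n = 3 and 6), a log2 fold change of 2.42 (SE 0.46, adjusted p = 0.00158 by edgeR). Trim63, the ubiquitin ligase MuRF1 that binds titin near the M-band, averaged 2478 ± 731 CPM in CD47-KO and 609.9 ± 279 CPM in sedentary libraries, a log2 fold change of 2.02 (SE 0.36, adjusted p = 0.00106). Both were above all sedentary libraries in every CD47-KO library, as were 15.7% of all genes. After GC correction both stayed higher, at 1.54 for Xirp2 and 2.29 for Trim63. Cfl2, the muscle cofilin that severs actin filaments, was higher at 0.76 (SE 0.18, adjusted p = 0.00756) but turned to -0.79 after GC correction (adjusted p = 0.0187), so that no direction can be given for it.

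Among those lower against sedentary, Synpo2l, a Z-disc protein that binds alpha-actinin, averaged 67.6 ± 11.7 CPM in CD47-KO and 173 ± 60.0 CPM in sedentary libraries, a log2 fold change of -1.36 (SE 0.26, adjusted p = 0.00194 by edgeR). Acta1, skeletal actin, averaged 18760 ± 1809 in CD47-KO and 37018 ± 4509 CPM in sedentary libraries (-0.98, SE 0.21, adjusted p = 0.00313). Des, the intermediate filament desmin that links Z-discs, averaged 2610.4 ± 135 in CD47-KO and 4818 ± 1069.7 CPM in sedentary libraries (-0.88, SE 0.22, adjusted p = 0.0105). For all 3, every CD47-KO library lay below every sedentary library, as for 10.3% of all genes. With GC correction, Synpo2l stayed lower (-0.88), whereas Acta1 (-0.51, adjusted p = 0.110) and Des (-0.44, adjusted p = 0.253) no longer passed, and 2 of the 56 partners were higher and 2 lower (3.57% each, against 4.73% and 4.99% of all genes). The fast-fibre alpha-actinin Actn3 was lower as tested, at -0.99 (adjusted p = 0.0325), but not after GC correction (-0.54, adjusted p = 0.327), and Actn2 was at -0.36.

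Against exercise, 5 of the 56 partners were higher (8.93%) and 9 lower (16.1%) in CD47-KO, beside 12.2% and 8.34% of all genes, with a median of -0.34 against -0.08 over all genes. The smallest p-values belonged to Xirp2 (2.90), Cfl2 (0.97) and Trim63 (1.81) among those higher and to Acta1 (-1.08), Synpo2l (-1.33) and Des (-0.91) among those lower. With GC correction, Xirp2 and Trim63 stayed higher and Synpo2l stayed lower, and Acta1 and Des no longer passed, while Cfl2 turned to -0.61 (adjusted p = 0.0631). For exercise against sedentary, 0 of the 56 partners were called, with a median of 0.03 against -0.03 over all genes, and Xirp2 was at -0.49 (SE 0.39) and Trim63 at 0.21 (SE 0.31).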

How the data were processed

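RNA of 15 skeletal muscle libraries was analysed from 1 table of gene counts deposited by the authors, with whole numbers per gene symbol and no column without a sample. The submitters' processing notes name the build GRCm38 and the tools HTSeq 0.6.1, HISAT2 2.0.1 and Trimmomatic 0.30; strand setting and annotation release are not given in the sources used here. Among values of 1 to 15, a share of 32.1 to 33.6% in CD47-KO and 41.7 to 50.2% in the other libraries were 4, 8 or 12. The deposited counts may thus not be one count per read, and no counting error was computed from them.

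Counts were filtered with filterByExpr (17975 of 22798 symbols kept), scaled by TMM and tested in edgeR 4.0.16 (quasi-likelihood, robust dispersion, all 15 libraries, group as the only term) in R 4.3.3, with a threshold of 0.05 on Benjamini-Hochberg adjusted p-values. CPM are TMM-scaled counts, and log2 CPM used a prior count of 2. Standard errors were derived from the fold change and its F statistic. The GC correction fitted a lowess curve (span 0.3) per library on transcript GC content, which entered the model as an offset. Symbols were matched to GENCODE annotation of GRCm38, with 22716 found once. Ratios were tested by exact permutation. DESeq2 1.42.0, limma-voom (limma 3.58.1), other filters and scalings, library subsets and each library left out were the alternatives. The edgeR fit, as used and with the GC correction, was first tested on simulated data. The other alternatives were not.

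The 9 genes, the partner and marker lists and the tests were chosen with earlier results of these data known. Members were named in every comparison, and partners by the 3 smallest p-values in each direction among those called; Actn3, Mylpf, Casq1 and Myh1 were named after their values were seen, as were the overlapping genes. The values reported are unpaired, and the title number entered as a block only in an alternative. Same-numbered exercise and sedentary libraries had correlations of 0.194 to 0.364 (median 0.262), which met the criterion for pairing. However, only 2 of the 6 exercise libraries were nearest to the sedentary library of their own number. Pairs of the same set with other numbers had a median of 0.265, so the correlation may be that of the number sets. Exercise libraries 4 to 6 carry other numbers in their descriptions than in their titles.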

Additional observations from a re-analysis of the deposited data

Results flagged for a closer look

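In 24 sets of 6 libraries (9 genes and 3 ratios, in exercise and in sedentary), the highest or lowest library was compared with its nearest neighbour. In 6 sets it stood apart by more than the 95% limit. That limit flags about 1 in 20 sets when sets are independent and normally distributed. CPM and ratios were not log-transformed here, and the sets share libraries and genes, so whether 6 exceeds chance cannot be told. Sedentary library 1 was flagged in 3 of the 6 sets. Its Actn2 level was 3424 CPM, against 1488 CPM in the next sedentary library. Its ratio of Mybpc1 to Mybpc2 was 0.456, against 0.178 in the next, and its ratio of Myom3 to Myom2 was 0.476, against 0.110. Summed slow fibre genes were also highest there, at 24667 CPM, as were tendon genes (729 CPM, against 271 CPM in the next of the 15 libraries), cardiac genes (294 against 104 CPM) and endothelial genes (396 against 317 CPM). The muscle fibre identity genes, at 72216 CPM, were the lowest of the 12 exercise and sedentary libraries. The part of tissue or fibre content in these values was not tested. Without this library, the log2 fold change of Actn2 for CD47-KO against sedentary was 0.06, against -0.36 with it.

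Exercise library 3 was low in Myom3, at 8.01 CPM where the next lowest exercise library had 73.8 CPM, and in the ratio of Myom3 to Myom2, at 0.00275 against 0.0405. Its summed slow fibre genes, 105 CPM, were the lowest of the 15 libraries. Ttn in sedentary library 2 was 19157 CPM, against 11877 CPM in the next. Without it, the log2 fold change of Ttn was 0.50 for CD47-KO against sedentary and -0.32 for exercise against sedentary, against 0.23 and -0.55 with it, and neither was called.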

How the results depend on the processing

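The higher Neb of CD47-KO kept its direction in every setting tried, at 0.57 to 1.32 against sedentary and 0.90 to 1.71 against exercise, and lost its call with the GC and length correction (0 members higher in both comparisons) and, against sedentary, without CD47-KO library 3. Myoz1 kept its direction too, but 0 members were called lower against sedentary with only the groups compared, the GC correction, the GC and length correction or numbers 1 to 3 only, and 0 against exercise with either correction. Without sedentary libraries 1 and 6, 2 members were lower against sedentary, where 1525 of 17643 genes were. With exercise numbers 4 to 6 only, 2 members were higher against exercise, where 2589 of 16972 genes were. The causes of these changes were not tested. The least abundant member, Myom3, was at 8.01 CPM in its lowest library, and with 3 to 6 libraries a group the spread between libraries limits the precision.

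The replicate block by title number gave 4842 genes for CD47-KO against sedentary and 4980 against exercise, where no block gave 3719 and 3698. For the libraries labelled CD47-KO the same-number correlations were -0.102 to 0.149, and 0 of 3 against sedentary and 1 of 3 against exercise were nearest to their own number, so that they share only a number. With the block, 0 members were lower against sedentary (Myoz1 -0.65), Ttn was at -0.19 and Myom1 at -0.21 against sedentary, and Myom3 at -0.20 against exercise. With block and GC correction, 0 members were lower in either comparison, and against sedentary Ttn was at -0.37, Myom1 at -0.031 and Actn2 at 0.24, and against exercise Actn2 at 0.32. The block changed no call for exercise against sedentary.

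Gene counts changed with the GC correction, to 1747 against sedentary and 1722 against exercise, with the GC and length correction, to 1747 and 1972, and with numbers 1 to 3 only, to 5588 against sedentary. DESeq2 called 9 genes for exercise against sedentary. Leaving out 1 library gave 2178 to 3881 genes for CD47-KO against sedentary and 2292 to 3554 against exercise, with 0 to 1 members higher against sedentary and 0 to 1 lower in both.

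No member was called in a setting that turned its direction. For CD47-KO against sedentary, Actn2 was at 0.091 with the GC correction, 0.11 with the GC and length correction, 0.16 with numbers 4 to 6 and 0.24 without sedentary 1 and 6, and Ttn was at -0.17 with the GC and length correction. Myom1 was at -0.089 with numbers 1 to 3, Myom3 at 0.64 with numbers 4 to 6 and 0.15 without sedentary 1 and 6, and Myom2 at -0.069 in the last. Leaving out 1 library gave -0.096 to 0.73 for Mybpc1, -0.077 to 0.31 for Myom2, -1.77 to 0.023 for Myom3 and -0.83 to 0.055 for Actn2. For exercise against sedentary, numbers 4 to 6 gave 0.31 for Mybpc1, -0.14 for Mybpc2, 0.37 for Myom3, 0.62 for Actn2 and -0.13 for Myoz1. Without sedentary 1 and 6, Mybpc1 was at 0.0036, Mybpc2 at -0.13, Myom1 at -0.0085 and Actn2 at 0.47, and limma-voom gave 0.045 for Actn2. Leaving out 1 library gave -0.33 to 0.0097 for Mybpc1, -0.032 to 0.19 for Mybpc2, -0.022 to 0.30 for Myom1, -0.25 to 0.38 for Actn2 and -0.061 to 0.22 for Myoz1.

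For CD47-KO against exercise, Myom1, near 0 as tested, was at 0.024 with RLE factors and DESeq2, 0.030 with limma-voom, 0.022 without a filter, 0.064 with only the groups compared, 0.19 with the GC correction, 0.086 with the GC and length correction, 0.066 without mitochondrially encoded genes and 0.53 with numbers 4 to 6. Myom2 was at 0.024 with the GC correction and 0.032 with numbers 4 to 6. Actn2 was at 0.20 with the GC correction, 0.24 with the GC and length correction and 0.094 with numbers 1 to 3. Leaving out 1 library gave -0.11 to 0.18 for Myom1 and -0.77 to 0.74 for Myom3. Among the log2 ratios, Ttn to Neb turned to 0.12 for exercise against sedentary with numbers 1 to 3 and to 0.15 for CD47-KO against exercise with numbers 4 to 6. With numbers 4 to 6, Mybpc1 to Mybpc2 was at 0.45 for exercise against sedentary, and Myom3 to Myom2 at 0.019 for CD47-KO against sedentary, 0.12 for exercise against sedentary and -0.10 for CD47-KO against exercise. Leaving out 1 library gave -1.52 to 0.15 for Myom3 to Myom2 in CD47-KO against sedentary, -0.33 to 1.34 in CD47-KO against exercise, and -0.63 to 0.034 for Mybpc1 to Mybpc2 in exercise against sedentary.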
